A study of Mus musculus x Mus spretus with 8 samples.

Results

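The RNA of 10 genes of the p53 and cell cycle arrest circuit was followed in Patski cells, described as a fibroblast line from a female hybrid of C57BL/6 and SPRET/EiJ mice. The genes were Trp53, which encodes p53, its antagonist Mdm2, the cyclin-dependent kinase (CDK) inhibitor genes Cdkn1a, Cdkn2a and Cdkn2b, and the p53 targets Ccng1, Bax, Sesn1, Phlda3 and Zmat3. They were chosen by symbol, and each was found once among the 49670 genes of the count table. All 10 passed the filter on low counts, which kept 17839 genes. Of the 8 libraries, 2 came from wild type (WT) cells and 2 each from lines labelled stc1 -/-, pygo1 -/- and rlim -/-, called Stc1-KO, Pygo1-KO and Rlim-KO here. Each gene was mutated in Patski itself and is described as homozygous null, with 2 independent mutants. The labels name no treatment, and all groups shared a medium of DMEM with fetal bovine serum. How the WT pair was made is not stated, and the knockout libraries are labelled only by group and replicate number. The p-values therefore measure only the spread between these libraries, which may be technical in WT or in a knockout group.

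Depth was even, with 73128996 to 81500061 counts per library, of which 50.6 to 52.6% were assigned to a parental genome (genome 1 or genome 2; the labels do not tell which parent is which). The targeted genes were not lower past the test under their own labels: in edgeR the log2 difference from WT was 3.37 ± 1.15 (SE, adjusted p = 0.236) for Stc1, -0.63 ± 0.84 (adjusted p = 0.715) for Pygo1 and 0.33 ± 0.37 (adjusted p = 0.699) for Rlim. Counts over a whole gene do not show whether a short mutation is present, so the groups are named by their labels. The Stc1-KO libraries stood apart from each other: 1070 of the 10445 genes that averaged 5 CPM or more (counts per 1000000 of the TMM-scaled library size) differed by more than 2-fold between them, against 4 in WT, 257 in Pygo1-KO and 2 in Rlim-KO. The Rlim-KO pair was the closest, with a median absolute log2 difference of 0.059 over these genes. That median was 0.097 in WT, 0.193 in Pygo1-KO and 0.348 in Stc1-KO. Whether the Rlim-KO libraries came from independent mutants was not tested. Of 12 fibroblast markers 5 reached 1 CPM in every library, led by Vim and Col5a1, while Thy1, Lum and Fap stayed at or under 0.1. Of 13 epithelial and kidney tubule markers 4 did, led by Cdh16 and Pax2. Per length, the kidney list summed to 1673 to 2678 TPM (counts per kilobase of merged exons, scaled to the same sum in every library) and the fibroblast list to 652 to 963. The kidney list was thus the higher in every library, although the line is described as fibroblast. Of the markers in these 2 lists, Cldn2 fell under all 3 labels (edgeR adjusted p = 0.00114 in Stc1-KO, 0.0059 in Pygo1-KO and 0.000843 in Rlim-KO), Cdh1 fell in Pygo1-KO and Rlim-KO, and S100a4 fell in Rlim-KO. The lists as a whole did not fall with them. Of 8 tested fibroblast markers 5 were higher in Stc1-KO, 7 in Pygo1-KO and 5 in Rlim-KO. Of 10 tested epithelial and kidney tubule markers 6, 2 and 5 were higher in the same order. In both lists 0 were called higher. Leukocyte markers summed to 29.3 to 60.0 CPM, most of it from Csf1r. Of the 4 tested, 3 were higher in Pygo1-KO, with Cd68 called. Csf1r was lower there without being called, at 33.4 and 36.1 CPM against 49.5 and 50.7 in WT. Endothelial markers summed to 2.63 to 8.73 CPM outside Stc1-KO replicate 2, which had 102, of which Cdh5 made up 100. In that library Pecam1 stood at 0.24 CPM and Vwf at 1.90. Of the 3 tested, 2 were higher in Rlim-KO, with Pecam1 called at a low level (2.27 and 2.26 CPM, 0.026 and 0.163 in WT). Vwf was lower there without being called (0.682 and 0.720 CPM, 0.951 and 1.45 in WT). The part of these markers in the results on the 10 genes was not tested.

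p53 is a transcription factor that is kept low by Mdm2, a ubiquitin ligase whose own gene p53 switches on, so the pair forms a feedback loop. Stress that frees p53 raises Cdkn1a, whose product p21 halts the cycle by inhibiting CDKs, and targets that act in cell death, metabolism and RNA stability. A second arm runs through Cdkn2a and Cdkn2b, whose products Ink4a and Ink4b block the kinases that inactivate the retinoblastoma protein, and through Arf, a further product of Cdkn2a that restrains Mdm2. In cultured fibroblasts these genes are known for senescence, and lines that grow without limit have often lost or silenced a step of the circuit.

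The coding starts of the 3 main products of the Cdkn2 locus are shown because the deposited count of Cdkn2a adds up 2 messages that begin in different first exons. They are given 5′ to 3′ on the minus strand of chromosome 4 from the GENCODE M21 transcripts (GRCm38), each over its first 60 coding bases, with the start codon in capitals. The first, Ink4a, lies at chr4:89282052-89282111, the second, Arf, at chr4:89294464-89294523, and Cdkn2b at chr4:89310738-89310797.
Ink4a (Cdkn2a-201): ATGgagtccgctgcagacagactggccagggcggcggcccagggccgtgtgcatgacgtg
Arf (Cdkn2a-202): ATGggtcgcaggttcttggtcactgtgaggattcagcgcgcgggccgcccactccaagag
Ink4b (Cdkn2b-201): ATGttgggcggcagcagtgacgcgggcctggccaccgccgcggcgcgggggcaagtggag

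The Ink4a and Arf messages, of 852 and 895 bases, share an identical run of 578 bases downstream of these starts. A count per gene therefore cannot tell Ink4a from Arf, and every Cdkn2a value here is their sum. Cdkn2b, of 1390 bases, shares no identical run longer than 23 bases with either, although its best alignment to the Ink4a message is 76.2% identical over 345 bases. Trp53 has a nearer copy, the processed pseudogene Trp53-ps on chromosome 17, which matches the Trp53 message at 96.2% over 1154 bases with identical runs of up to 106 bases. Trp53-ps was listed at 0 in all 8 libraries. How multi-mapping reads were handled is not stated, so a part of the Trp53 count could be affected. Bax shares its strand with the predicted gene Gm45808, listed at 0 throughout, and 9930024M15Rik within Sesn1 held 0 to 4 reads.

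Levels between genes were compared per length, in TPM. Trp53 had the highest level, with a mean of 282 TPM over 8 libraries (203 to 369), at the 97.3 percentile of the genes tested. Cdkn2a followed at 218 TPM (185 to 326), a range that overlapped that of Trp53. Bax at 134 TPM (118 to 146) lay below every Cdkn2a value, and Phlda3 at 125 TPM (87.9 to 208) overlapped Bax. Cdkn1a at 39.6 TPM (27.2 to 47.0) and Cdkn2b at 21.7 TPM (16.8 to 28.6) lay below both and overlapped each other. Below Cdkn2b without overlap, Mdm2 at 12.8 TPM, Zmat3 at 11.9, Ccng1 at 8.79 and Sesn1 at 5.89 formed the low end, each overlapping its neighbour in the order. The Cdkn2 locus, often silenced or deleted in lines that grow without limit, was thus read at a level above 96.2% of tested genes for Cdkn2a. The plot of levels by library shows the same genes in CPM, the unit used for every comparison between libraries.

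**Figure D1:**
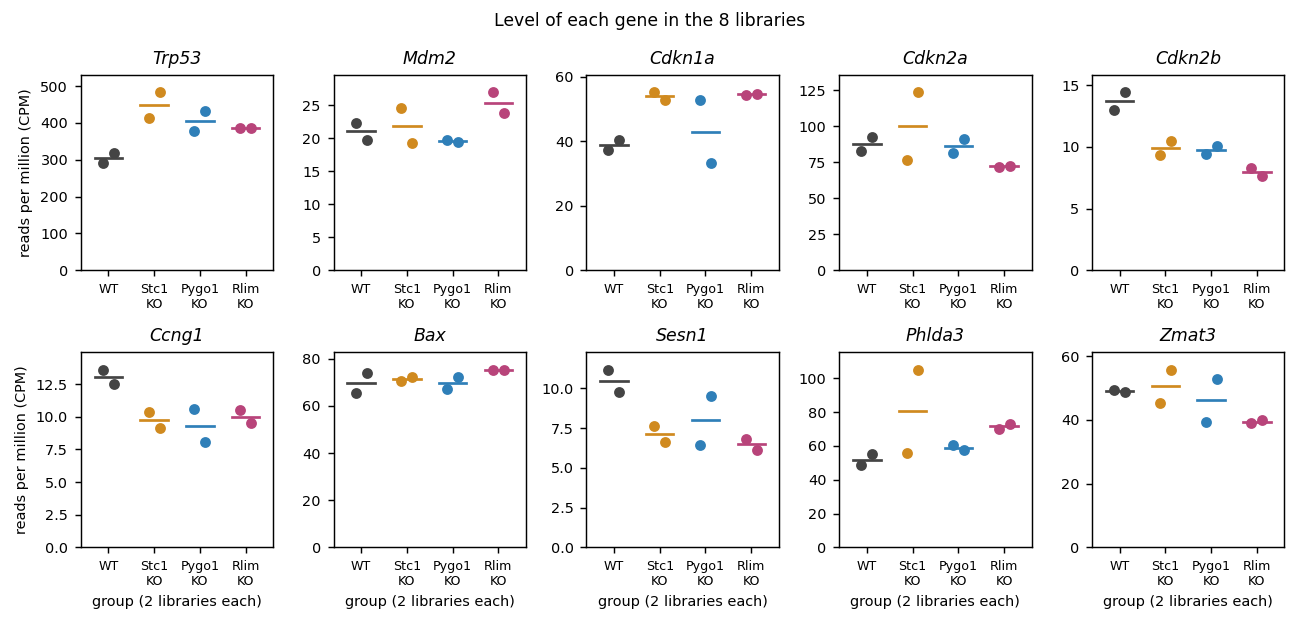
Level of each of the 10 genes in CPM (vertical axis, linear from 0) in the 4 groups; each point is 1 of 2 libraries and the bar is their mean. Trp53 and Phlda3 lie above both WT points in all 6 knockout libraries, and Cdkn2b, Ccng1 and Sesn1 lie below both.

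Trp53 mRNA was higher in every knockout library than in either WT library, by 1.27- to 1.47-fold on group means, without passing the test across all genes. Its level was 291 and 318 CPM in WT, 412 and 483 in Stc1-KO, 377 and 432 in Pygo1-KO, and 386 in both Rlim-KO libraries. The knockout libraries did not overlap WT, and Stc1-KO replicate 2 was the highest of all. In edgeR the log2 difference from WT was 0.56 ± 0.13 (SE, adjusted p = 0.141) for Stc1-KO, 0.41 ± 0.13 (adjusted p = 0.154) for Pygo1-KO and 0.34 ± 0.13 (adjusted p = 0.245) for Rlim-KO. DESeq2 called it in Stc1-KO with an adjusted p of 0.0126, in a fit that called 5.42% of all genes. Over 14 alternatives 2 called it there, and the adjusted p reached 0.71. Without the Stc1-KO pair, edgeR called it in Pygo1-KO with an adjusted p of 0.0267, in a fit that called 21% of all genes, and the adjusted p ran from 0.0267 to 0.599 over 15 alternatives. The 10 nearest tested genes, between positions 69396519 and 69666153 of chromosome 11, moved the same way. Their median log2 difference was 0.46 in Stc1-KO, 0.59 in Pygo1-KO and 0.65 in Rlim-KO, with 7, 10 and 10 of them positive. With each chromosome scaled to WT, Trp53 kept a log2 difference of 0.59, 0.42 and 0.35. The part of its neighbourhood in the difference was not tested. In bulk RNA, fewer cells of a type and less RNA per cell cannot be told apart.

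Mdm2, the p53 target that closes the feedback loop, did not differ past the test and varied little. It stood at 22.4 and 19.7 CPM in WT, 24.6 and 19.2 in Stc1-KO, 19.8 and 19.5 in Pygo1-KO, and 27.0 and 23.9 in Rlim-KO. The Rlim-KO libraries lay above both WT libraries, and the other 2 groups overlapped WT. The edgeR log2 difference from WT was 0.06 ± 0.16 for Stc1-KO, -0.10 ± 0.16 for Pygo1-KO and 0.27 ± 0.16 for Rlim-KO (adjusted p = 0.896, 0.765 and 0.427). Set against Trp53 per length, the Mdm2 message amounted to 0.0613 and 0.0494 of the Trp53 message in the WT libraries. The ratio was 0.0475 and 0.0317 in Stc1-KO and 0.0418 and 0.0359 in Pygo1-KO, below both WT libraries, and 0.0556 and 0.0492 in Rlim-KO, which overlapped WT. The ratio was not tested.

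Among the CDK inhibitors, Cdkn2b was the gene with the most even shift: all 6 knockout libraries were below both WT libraries. Its level was 13.0 and 14.4 CPM in WT, 9.38 and 10.5 in Stc1-KO, 9.43 and 10.1 in Pygo1-KO, and 8.30 and 7.65 in Rlim-KO. The Rlim-KO pair was the lowest and did not overlap any other group. In edgeR the log2 difference from WT was -0.46 ± 0.15 (adjusted p = 0.219) for Stc1-KO, -0.49 ± 0.15 (adjusted p = 0.14) for Pygo1-KO and -0.78 ± 0.15 (adjusted p = 0.0643) for Rlim-KO, the last a 1.72-fold lower level. For Rlim-KO, DESeq2 gave an adjusted p of 0.00033 in a fit that called 7.95% of all genes. Without the Stc1-KO pair edgeR gave 0.00954, in a fit that called 17.4%. Of 15 alternatives 5 called it. The smallest adjusted p, 1.06e-14, came from the edgeR fit of the compared groups only, which called 48.9% of all genes, and the largest was 0.543. Without the Stc1-KO pair Cdkn2b was also called in Pygo1-KO, with an edgeR adjusted p of 0.0344 in a fit that called 21% of all genes. Over 15 alternatives 3 called Cdkn2b there, and the adjusted p reached 0.582. Its 10 neighbours did not move with it, with median log2 differences of 0.28 in Stc1-KO, 0.14 in Pygo1-KO and -0.10 in Rlim-KO.

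Cdkn2a, on the same stretch of chromosome 4, did not follow Cdkn2b. It stood at 82.7 and 92.9 CPM in WT, 76.5 and 124 in Stc1-KO, 81.4 and 91.5 in Pygo1-KO, and 72.1 and 72.6 in Rlim-KO. Rlim-KO was below both WT libraries, Pygo1-KO overlapped WT, and the Stc1-KO pair lay on both sides of WT, with the highest library of the study. The edgeR log2 difference was 0.19 ± 0.22 for Stc1-KO, -0.02 ± 0.22 for Pygo1-KO and -0.28 ± 0.22 for Rlim-KO (adjusted p = 0.712, 0.968 and 0.557). Without Stc1-KO replicate 1 the first became 0.49, and over 14 alternatives it ran from -0.21 to 0.49, so replicate 2 decides that value. Per length, the Cdkn2a message was 7.57 and 7.64 times the Cdkn2b message in WT. The ratio was higher in all 6 knockout libraries, at 9.67 and 14.0 in Stc1-KO, 10.2 and 10.8 in Pygo1-KO, and 10.3 and 11.3 in Rlim-KO. The ratio was not tested.

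Cdkn1a was higher than WT in 5 of 6 knockout libraries, with the exception in Pygo1-KO. It stood at 37.1 and 40.5 CPM in WT, 55.1 and 52.8 in Stc1-KO, 52.8 and 33.1 in Pygo1-KO, and 54.3 and 54.7 in Rlim-KO. Pygo1-KO replicate 2, at 33.1 CPM, was the lowest library of all. The edgeR log2 difference was 0.47 ± 0.21 (1.39-fold, adjusted p = 0.326) for Stc1-KO, 0.15 ± 0.21 (adjusted p = 0.733) for Pygo1-KO and 0.49 ± 0.21 (1.40-fold, adjusted p = 0.282) for Rlim-KO. Leaving out Pygo1-KO libraries in turn moved the middle value between -0.24 and 0.44. Its 10 neighbours on chromosome 17 had medians near 0 in Stc1-KO (-0.08) and Rlim-KO (0.09) and of -0.26 in Pygo1-KO.

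The other targets of p53 split by direction. Ccng1, which encodes cyclin G1, was at 13.6 and 12.5 CPM in WT, 10.4 and 9.14 in Stc1-KO, 10.6 and 8.04 in Pygo1-KO, and 10.5 and 9.55 in Rlim-KO. Sesn1, whose product sestrin 1 restrains the growth kinase mTORC1, was at 11.2 and 9.77 CPM in WT, 7.63 and 6.63 in Stc1-KO, 6.46 and 9.51 in Pygo1-KO, and 6.84 and 6.14 in Rlim-KO. Both were lower in all 6 knockout libraries than in WT, although Pygo1-KO replicate 2 came close to the lower WT library for Sesn1. The edgeR log2 differences of Ccng1 were -0.42 ± 0.18, -0.49 ± 0.18 and -0.38 ± 0.18 in the order Stc1-KO, Pygo1-KO, Rlim-KO (adjusted p = 0.325, 0.2 and 0.335). Those of Sesn1 were -0.56 ± 0.23, -0.39 ± 0.22 and -0.69 ± 0.23 (adjusted p = 0.291, 0.371 and 0.177). The 10 neighbours of Ccng1 had median log2 differences of -0.22, -0.11 and -0.02 in the same order, and those of Sesn1 of -0.04, 0.09 and -0.01. These 2 genes had the lowest levels of the 10 per length, with 478 to 1045 counts per library.

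Phlda3, whose product competes with the kinase Akt at the membrane, was the target on the higher side. It stood at 48.5 and 55.0 CPM in WT, 55.8 and 105 in Stc1-KO, 60.3 and 57.4 in Pygo1-KO, and 69.8 and 73.2 in Rlim-KO. All 6 knockout libraries lay above both WT libraries, but Stc1-KO replicate 1 hardly so, and replicate 2 was by far the highest. The edgeR log2 difference was 0.64 ± 0.27 (adjusted p = 0.309) for Stc1-KO, 0.19 ± 0.27 (adjusted p = 0.735) for Pygo1-KO and 0.47 ± 0.27 (adjusted p = 0.414) for Rlim-KO. The Stc1-KO value was 0.10 without replicate 2 and 1.02 without replicate 1, so it rests on replicate 2. Without the Stc1-KO pair, Phlda3 was called in Rlim-KO at an edgeR adjusted p of 0.0178, in a fit that called 17.4% of all genes. Over 15 alternatives 4 called it there. The smallest adjusted p, 2.26e-10, came from the edgeR fit of the compared groups only, which called 48.9% of all genes, and the largest was 0.825. The 10 neighbours of Phlda3 on chromosome 1 had a median log2 difference of 0.14 in Stc1-KO, 0.14 in Pygo1-KO and 0.35 in Rlim-KO, all 10 positive in the last. Their part in the difference was not tested.

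Bax, a pore-forming protein of the mitochondrial route to cell death, was the steadiest of the 10 genes. Its level ran from 65.6 CPM in WT replicate 1 to 75.5 CPM in Rlim-KO replicate 1, and its log2 differences from WT were 0.03 ± 0.11, 0.00 ± 0.11 and 0.11 ± 0.11 (edgeR adjusted p = 0.913, 1 and 0.649). Zmat3, which encodes an RNA-binding protein, stood at 49.5 and 48.9 CPM in WT, 45.2 and 55.8 in Stc1-KO, 39.4 and 52.9 in Pygo1-KO, and 39.1 and 39.8 in Rlim-KO. Rlim-KO was below WT and the other groups overlapped it, with log2 differences of 0.04 ± 0.17, -0.09 ± 0.17 and -0.32 ± 0.17 (edgeR adjusted p = 0.937, 0.801 and 0.385).

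Across the 10 genes none passed an adjusted p of 0.05 in edgeR in any comparison. Against WT, 0.577% of all genes passed in Stc1-KO, 2.35% in Pygo1-KO and 1.4% in Rlim-KO. At an unadjusted p under 0.05 stood 4 of the 10 in Stc1-KO (Trp53, Cdkn2b, Sesn1, Phlda3), 3 in Pygo1-KO (Trp53, Cdkn2b, Ccng1) and 3 in Rlim-KO (Trp53, Cdkn2b, Sesn1), against 16%, 20.6% and 17.9% of all genes. DESeq2 called 1, 0 and 1 of them, and 5.42%, 9.57% and 7.95% of all genes. The median log2 difference of the 10 was 0.05, -0.06 and -0.08, beside 0.01, 0.00 and 0.01 over all genes, with 7, 4 and 5 of the 10 positive. The 3 comparisons share the WT libraries, so their similar signs are not independent. Between knockout groups, too, none passed: the share of all genes called was 1.74% for Stc1-KO against Pygo1-KO, 0.381% for Stc1-KO against Rlim-KO and 1.02% for Pygo1-KO against Rlim-KO. In those 3 comparisons 0 of the 10 had an unadjusted p under 0.05, against 17.4%, 14.9% and 16.2% of all genes, and DESeq2 called 0. The edgeR test for any difference among the 4 groups called 0 of 10 (3.14% of all genes). At an unadjusted p under 0.05 stood 2 of the 10 and 23.8% of all genes, and DESeq2 called 2 of the 10, Trp53 and Cdkn2b, and 17.6% of all genes. The 3 labels together against WT, a contrast added after the data were seen, called 0 (1.54% of all genes). Of the 10, 4 had an unadjusted p under 0.05, against 18.9% of all genes, and DESeq2 called the same 2, against 7.88%.

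**Figure D2:**
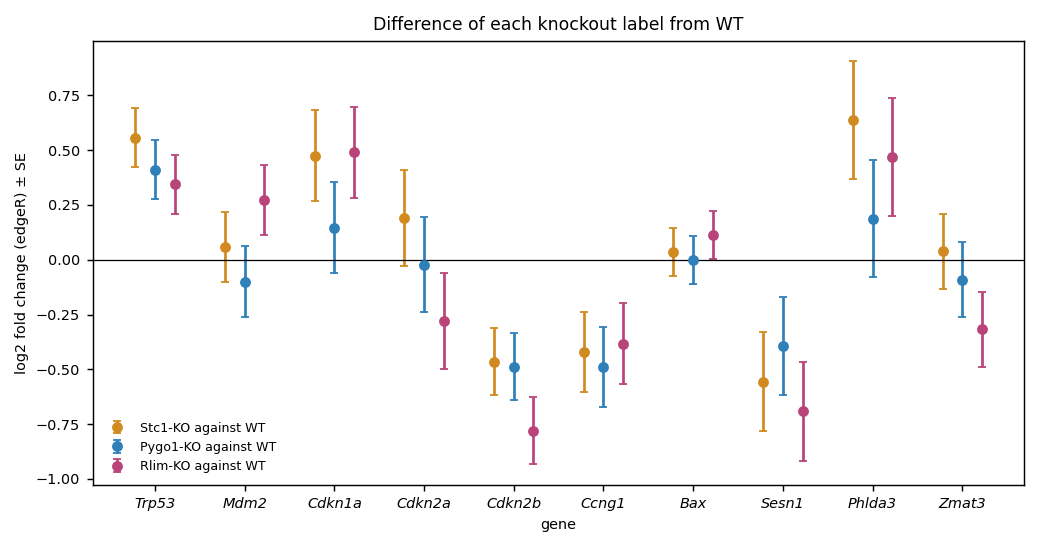
Log2 fold change of each gene against WT (vertical axis, edgeR) for the 3 knockout labels; points are estimates and bars are standard errors. Trp53 lies at 0.34 to 0.56 and Cdkn2b at -0.78 to -0.46, while Bax lies between 0.00 and 0.11.

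Counted by library, 5 of the 10 genes had the 6 knockout libraries apart from the WT pair in 1 direction: Trp53 and Phlda3 above and Cdkn2b, Ccng1 and Sesn1 below. Of all genes 9.3% were above and 9.5% below in this way, 18.8% in all. Without the Stc1-KO pair the counts were again 2 above and 3 below, but 18.1% and 19.5% of all genes then qualified, 37.6% in all. Groups did not overlap WT for 6 of the 10 genes in Stc1-KO (44.4% of all genes), 5 in Pygo1-KO (60.6%) and all 10 in Rlim-KO (71.3%). Such counts depend on how close the libraries of a pair are, and the Rlim-KO pair was the closest. Between knockout groups no overlap was seen for 0 of 10 in Stc1-KO against Pygo1-KO (37.5%), 5 in Stc1-KO against Rlim-KO (45.8%) and 6 in Pygo1-KO against Rlim-KO (58.3%).

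Reads assigned to a genome showed that 4 of the 10 genes had a genome 1 share under 20% in every library, in WT as in the knockout groups. Cdkn2a had 24 genome 1 reads against 17233 genome 2 reads over the 8 libraries, a genome 1 share of 0.0479 to 0.274% by library. The highest upper bound of its 95% Wilson intervals was 0.54%, in Stc1-KO replicate 2; these intervals cover counting error only. Cdkn2b had a genome 1 share of 1.28 to 5.40%, from 6 to 26 genome 1 reads per library. Ccng1 had 2.94 to 7.39% and Trp53 9.22 to 14.4%. The other 6 genes used both genomes more evenly, except for Zmat3 in Pygo1-KO, where genome 2 held 5.72 and 6.33%. Among them Bax had 33.7 to 39.2% from genome 1, Mdm2 47.7 to 56.8%, Phlda3 47.3 to 56.5%, Sesn1 56.8 to 82.2%, Cdkn1a 56.4 to 75.3% and Zmat3 75.3 to 94.3%. Shares under 20% in every library were found for 4 of the 10, against 19.6% of the 12476 genes with enough genome reads, and under 10% for 3, against 14.5%.

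The 4 genes lie on chromosomes that carried little genome 1 RNA as a whole. The median genome 1 share over 785 genes of chromosome 4 was 1.20 to 1.32% by group, and over 1043 genes of chromosome 11 it was 0.899 to 1.80%. Mtap, on the other side of Cdkn2a from Cdkn2b, had 0 to 3 genome 1 reads against 1878 to 2988 genome 2 reads per library. Trp53 stood above its surroundings: its neighbours with genome reads, 7 of 10, pooled to 3.12 to 3.66% genome 1. So did Cdkn2b, whose 3 neighbours with genome reads, Cdkn2a among them, pooled to 0.0212 to 0.197%. For Trp53 34.5 to 37.0% of reads were assigned to a genome, fewer than the 50.6 to 52.6% over all genes. The opposite held for Ccng1, whose neighbours pooled to 13.3 to 15.9%. The part of read assignment in these differences was not tested.

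**Figure D3:**
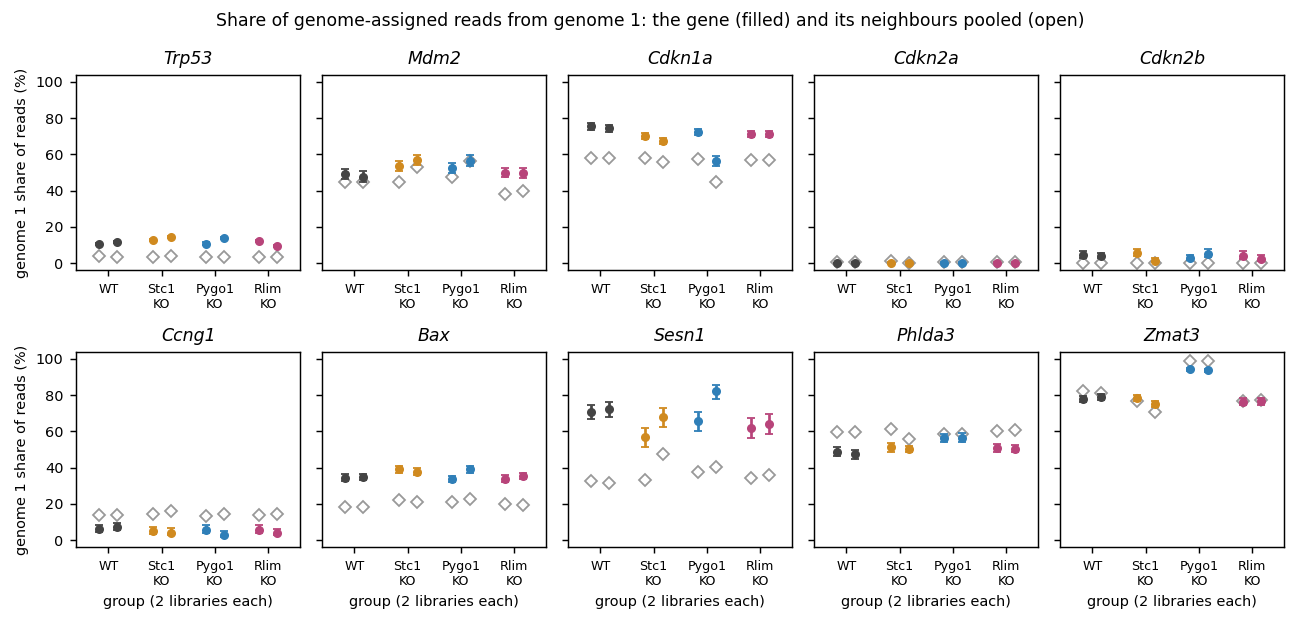
Share of genome-assigned reads from genome 1 in percent (vertical axis) for each gene; filled points are the gene in 1 library with its 95% Wilson interval, open diamonds its neighbours pooled in that library. Cdkn2a, Cdkn2b, Ccng1 and Trp53 stay under 15% in every library, and Zmat3 and its neighbours are higher in both Pygo1-KO libraries than elsewhere.

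The genome share of Zmat3 rose in Pygo1-KO, where its genome 2 RNA was mostly lost. Its genome 1 share was 77.9 and 78.8% in WT, 78.4 and 75.3% in Stc1-KO, 76.4 and 76.7% in Rlim-KO, and 94.3 and 93.7% in Pygo1-KO. The Pygo1-KO pair did not overlap any other library. In edgeR the log2 odds ratio of genome 1 to genome 2 against WT was 2.11 ± 0.15 (adjusted p = 0.000531), in a test that called 20% of 12476 genes. Genome 2 reads stood at 1.37 and 2.04 CPM in Pygo1-KO against 6.28 and 6.03 in WT, 0.277 of the WT level, while genome 1 reads were 1.18 times WT. Total Zmat3 did not differ past the test, as given above. The neighbours moved with it: their pooled genome 1 share was 82.1 and 81.3% in WT and 98.9 and 98.7% in Pygo1-KO. Over 630 genes of chromosome 3 the median was 79.5% in WT and 99.8% in Pygo1-KO. Zmat3 was thus less one-sided than its surroundings in that group.

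Phlda3, on chromosome 1, also rose in genome 1 share in Pygo1-KO, by a smaller amount. The share was 48.9 and 47.3% in WT, 51.3 and 50.3% in Stc1-KO, 51.0 and 50.5% in Rlim-KO, and 56.4 and 56.5% in Pygo1-KO, above all other libraries. The edgeR log2 odds ratio against WT was 0.49 ± 0.12 (adjusted p = 0.0471), and 4 of 6 alternatives lost the call, with adjusted p from 0.0397 to 0.253. Its neighbours pooled did not move with it, at 60.0 and 59.4% in WT and 58.7 and 58.4% in Pygo1-KO. By the median over neighbours the share was 57.80 and 57.85% in WT and 60.70 and 59.31% in Pygo1-KO. That median was 60.9 to 61.7% in the Stc1-KO and Rlim-KO libraries. Genome 1 reads of Phlda3 in Pygo1-KO were 1.34 times and genome 2 reads 0.952 times the WT level.

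No other gene of the 10 was called for its genome share. In Stc1-KO 0 of 10 passed (5.54% of genes) and in Rlim-KO 0 of 10 (11.9%). At an unadjusted p under 0.05 stood 0 of 10 in both, against 15% of genes in Stc1-KO and 23.9% in Rlim-KO. Cdkn1a split the Pygo1-KO pair: its genome 1 share was 72.2% in replicate 1 and 56.4% in replicate 2, against 67.4 to 75.3% in the libraries of the other groups. Replicate 2 was the library with the low total of Cdkn1a. Its genome 1 reads were 10.6 CPM, against 22.2 in replicate 1, while genome 2 reads were 8.19 and 8.53 CPM. The neighbours of Cdkn1a shifted in the same library, to a pooled 44.5% from 57.2% in replicate 1. Without replicate 1 the edgeR log2 odds ratio of Cdkn1a was -1.21 (adjusted p = 0.00176), against -0.70 with both (adjusted p = 0.241), and over 6 alternatives it ran from -1.21 to -0.20 with adjusted p of 0.00176 to 0.529. Sesn1 also split the Pygo1-KO pair, at 82.2% in replicate 2 against 65.6% in replicate 1. The Stc1-KO pair was apart too, at 56.8 and 67.8%, beside 71.0 and 72.3% in WT. In Pygo1-KO the edgeR log2 odds ratio of Sesn1 was 0.23 ± 0.47 and did not pass (adjusted p = 0.803).

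**Figure D4:**
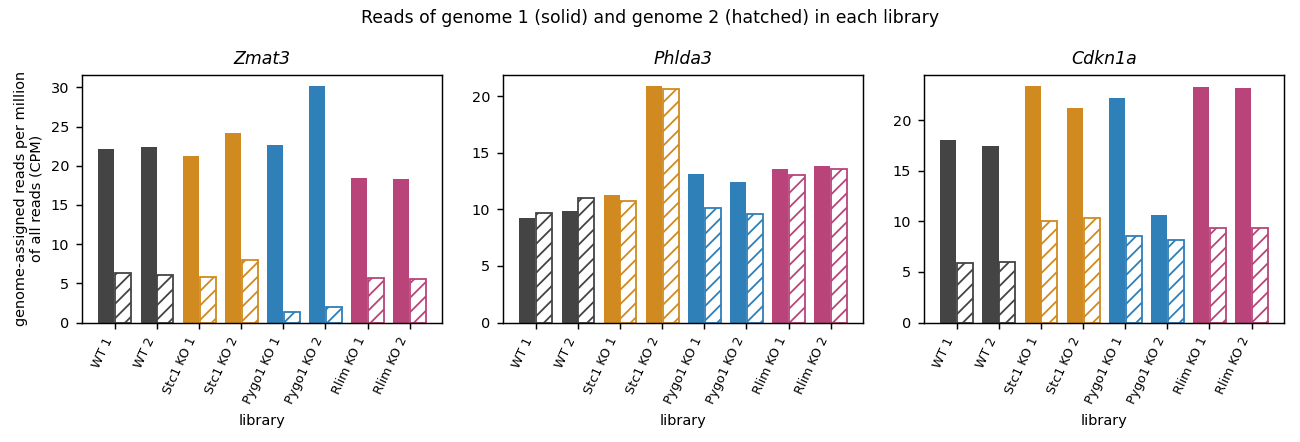
Genome 1 reads (solid bars) and genome 2 reads (hatched bars) of Zmat3, Phlda3 and Cdkn1a in CPM (vertical axis, linear from 0) in each library. Genome 2 reads of Zmat3 drop to 1.37 and 2.04 in Pygo1-KO, and genome 1 reads of Cdkn1a drop to 10.6 in Pygo1-KO replicate 2.

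The wider circuit was read from 7 lists. Of 43 tested p53 targets other than the 10 genes, edgeR called 0 higher and 1 lower in Stc1-KO, 0 higher and 1 lower in Pygo1-KO and 0 in Rlim-KO, where 0.785% of all genes rose and 0.617% fell. In the same order 10, 9 and 5 had an unadjusted p under 0.05, beside 16%, 20.6% and 17.9% of all genes. DESeq2 called 5, 3 and 3 of these targets, beside its 5.42%, 9.57% and 7.95% of all genes. Their median log2 difference was 0.02, -0.02 and 0.02, beside 0.01, 0.00 and 0.01 over all genes. The gene that fell in both was Pltp, a phospholipid transfer protein, at 2.55 and 2.62 CPM in WT, 0 and 0.0799 in Stc1-KO and 0.126 and 0.0413 in Pygo1-KO (adjusted p = 0.0368 and 0.0297), while Rlim-KO had 7.55 and 7.75. Among 28 regulators of p53 and checkpoint kinases 1 fell, Trim24, which encodes a ubiquitin ligase for p53, at 25.9 and 23.5 CPM in WT and 15.0 and 15.1 in Pygo1-KO (edgeR adjusted p = 0.0413). No regulator was called in Stc1-KO or Rlim-KO, where 0 and 3 had an unadjusted p under 0.05 and DESeq2 called 0 and 2. Over all genes 0.286% rose and 0.291% fell in Stc1-KO, and 1.54% rose and 0.807% fell in Pygo1-KO. Without the Stc1-KO pair 14 of the 43 targets and 8 of the 28 regulators were called in Pygo1-KO, where 21% of all genes were called, and 6 and 7 in Rlim-KO, where 17.4% were.

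Of 14 tested genes of the BCL2 family, which decides on mitochondrial cell death with Bax, 2 rose in Pygo1-KO, 1 in Rlim-KO and 0 in Stc1-KO (5 at an unadjusted p under 0.05 in edgeR, 2 called by DESeq2), and 0 fell under any label. Of all genes 1.54% rose in Pygo1-KO and 0.785% in Rlim-KO. In Stc1-KO 16% had an unadjusted p under 0.05, and DESeq2 called 5.42%. Bcl2l11, which encodes the death activator Bim, was at 60.7 and 58.4 CPM in WT and 103 and 104 in Pygo1-KO, 1.74-fold higher (edgeR adjusted p = 0.0169). It stood at 92.1 and 88.7 CPM in Stc1-KO without passing (adjusted p = 0.0663). Bik, a further activator, rose from 0.0521 and 0.0376 CPM in WT to 0.466 and 1.32 in Pygo1-KO and 0.996 and 0.822 in Rlim-KO (edgeR adjusted p = 0.0301 and 0.0372), a low level in every library. Each of these calls was lost in some alternatives: Bcl2l11 was called in 10 of 15, Bik in 10 of 15 for each label, Trim24 in 7 of 15, and Pltp in 8 of 14 for Stc1-KO and 8 of 15 for Pygo1-KO.

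In the lists closer to the CDK inhibitors edgeR called nothing against WT. This held for 5 other CDK inhibitors, 21 genes of the RB pathway, 18 Polycomb genes that repress the Cdkn2 locus and 36 genes of S, G2 and M phase. At an unadjusted p under 0.05 the proliferation list had 5 genes in Stc1-KO, 1 in Pygo1-KO and 3 in Rlim-KO, the RB list 4, 3 and 5, the Polycomb list 5, 2 and 3, and the CDK inhibitors 0, 1 and 0. Over all genes the share was 16%, 20.6% and 17.9%. DESeq2 called 1, 1 and 1 of the proliferation list, 2, 0 and 3 of the RB list, 0, 1 and 1 of the Polycomb list and 0 of the CDK inhibitors, beside 5.42%, 9.57% and 7.95% of all genes. Without the Stc1-KO pair edgeR called 2 of the proliferation list in Pygo1-KO and 4 in Rlim-KO. In the same order it called 2 and 5 of the RB list, 3 and 3 of the Polycomb list and 1 and 0 of the CDK inhibitors. Those fits called 21% and 17.4% of all genes. The smallest p of the proliferation list belonged in each of the 3 comparisons with WT to Cenpe, which encodes a motor protein of the kinetochore. Cenpe was at 42.2 CPM on the mean in WT, 23.5 in Stc1-KO (edgeR adjusted p = 0.0666), 64.1 in Pygo1-KO (adjusted p = 0.0821) and 28.0 in Rlim-KO (adjusted p = 0.0977). Its differences from WT had both signs, and none passed. Between knockout groups Cenpe did pass: it was higher in Pygo1-KO than in Stc1-KO by 2.73-fold (edgeR adjusted p = 0.0112) and than in Rlim-KO by 2.29-fold (adjusted p = 0.0242). In Stc1-KO against Pygo1-KO, 2 Polycomb genes passed as well, in opposite directions. Cbx7 was 2.14-fold lower in Stc1-KO (edgeR adjusted p = 0.0447) and Phc1 1.57-fold higher (adjusted p = 0.0469). Of all genes, 1.74% were called in Stc1-KO against Pygo1-KO and 1.02% in Pygo1-KO against Rlim-KO.

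**Figure D5:**
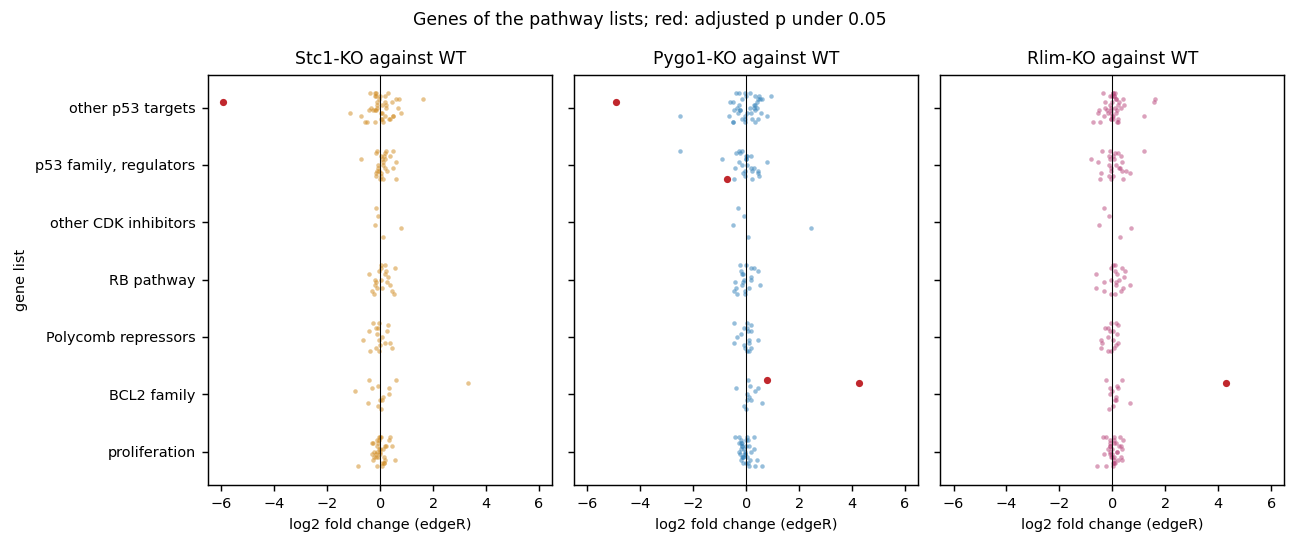
Log2 fold change against WT (horizontal axis, edgeR) of every tested gene in the 7 lists (vertical axis, with points spread for visibility), in 1 panel per knockout label; red points passed an adjusted p of 0.05. Only Pltp, Trim24, Bcl2l11 and Bik are red, and the proliferation and Polycomb lists have none.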

How the data were processed

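RNA was measured in 8 libraries made with a TruSeq kit and sequenced on an Illumina GAIIx, per the labels' protocols. What the authors deposited is a table of raw counts by Ensembl gene, in columns for all reads, genome 1 and genome 2. The submitters' processing notes name mm10, featureCounts, Cufflinks and HISAT2 2.0.5; annotation version, strand setting, multi-mapping and the tool that split genomes are not given in the sources used here. Symbols, coordinates, exon lengths and transcripts came from GENCODE M21 (GRCm38), matching 49411 of 49670 rows; the other 259 held at most 0.0139% of a library.

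Counts were fitted with edgeR 4.0.16 (R 4.3.3): TMM scaling, default filter, 1 mean per group over all 8 libraries, quasi-likelihood tests with Benjamini-Hochberg adjustment over 17839 genes, called under 0.05 (common biological coefficient of variation of 24.6%, with 2.94 prior degrees of freedom). Genome counts were fitted with a term per library and a genome term per group for 12476 genes with at least 20 genome reads in every library; 329 genes whose genome reads exceeded all reads were left out. Shares carry 95% Wilson intervals. DESeq2 1.42.0 was an alternative, beside other scalings, filters, sample sets, a replicate block and each library left out. Neighbours are the 5 nearest tested genes on each side. Alignments used Biopython 1.88, figures matplotlib 3.10.9. The fits were tested on simulated data. The changes in level simulated there were larger than any difference from WT among the 10 genes, so the detection of smaller ones was not tested. The 10 genes, the 7 pathway and 4 marker lists and the tests were chosen with earlier results of these data known. Named are the 10 genes, up to 4 called genes per list with the smallest adjusted p or else the gene with the smallest p, the 2 most abundant markers, the nearest genes of the Cdkn2 locus, and the targets. Thy1, Lum, Fap, Csf1r, Cdh5, Vwf, the called markers and Trp73 were chosen after their values were seen.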

Additional observations from a re-analysis of the deposited data

Results flagged for a closer look

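For 2 of the 10 genes in Pygo1-KO the change from WT differed between genome 1 and genome 2, by the edgeR test of that difference. The same test called 20% of the 12476 genes, so the count among the 10 is no more than the share over all genes. The log2 odds ratio was 2.11 for Zmat3 and 0.49 for Phlda3. The Zmat3 call held in 6 of 6 alternatives, with adjusted p from 0.000294 to 0.0111. The Phlda3 call was lost without WT replicate 1 (adjusted p = 0.181), without WT replicate 2 (0.253), without Pygo1-KO replicate 2 (0.0578) and with a replicate block (0.0901).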

How the results depend on the processing

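With 2 libraries a group the spread is pooled over groups, and a group left with 1 library is assumed to vary like the others. Among alternatives for single genes, 39 brought one of the 10 past the threshold, 4 lost a call and 0 reversed a called direction, while 54 gave an uncalled value the other sign. DESeq2 called 1 of the 10 in Stc1-KO against WT (Trp53) and 1 in Rlim-KO against WT (Cdkn2b), and 2 each for any difference among groups and for the 3 labels together (Trp53 and Cdkn2b). Fitting only the compared groups called 9 in Rlim-KO against WT, where 48.9% of all genes were called, and 0 elsewhere. For Rlim-KO against WT that fit took its spread from the 2 closest pairs. Without the Stc1-KO pair, 2 were called in Pygo1-KO against WT (Trp53 and Cdkn2b) and 2 in Rlim-KO against WT (Cdkn2b and Phlda3), where 21% and 17.4% of all genes were called. Leaving out 1 library at a time gave 0 to 3 in Stc1-KO against WT, 0 to 2 in Pygo1-KO and Rlim-KO against WT and in Stc1-KO against Pygo1-KO and against Rlim-KO, and 0 to 4 for any difference and for the 3 labels together. The counts above 0 came without a Stc1-KO library, in fits whose highest share of all genes called was, in that order, 24%, 19.8%, 16.3%, 21.9%, 26%, 39.2% and 19.9%. The cause was not tested. For genome shares in Pygo1-KO the log2 odds ratio ran from 2.03 to 2.18 for Zmat3 and from 0.44 to 0.53 for Phlda3 over 6 alternatives. Replicate numbers did not pair the libraries (correlations of deviations from -0.157 to 0.0443). A replicate block left 1 call for genome shares in Pygo1-KO (Zmat3), where 14.6% of 12476 genes were called. The block changed no other count of the 10, and lowered the calls over all genes to 18, 109 and 26 against WT. Low counts limit Ccng1, Sesn1, Cdkn2b and the genome 1 reads of Cdkn2a and Cdkn2b.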

Other observations

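Trp73, the p53 relative chosen here after its values were seen, split the Stc1-KO pair and the labels: 3.82 and 3.98 CPM in WT, 10.3 and 0.466 in Stc1-KO, 0.68 and 0.688 in Pygo1-KO, and 8.72 and 9.28 in Rlim-KO. Its edgeR log2 difference from WT was 0.46 ± 1.03, -2.51 ± 1.12 and 1.21 ± 1.04 (adjusted p = 0.863, 0.264 and 0.597), so none passed.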
